A study of Bos taurus with 33 samples.

Results

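The Hippo pathway was followed through 10 of its genes in bovine cumulus-oocyte complexes. The genes were chosen by symbol as YAP1, WWTR1, LATS1, LATS2, TEAD1, SAV1, AMOTL2, CTGF, CYR61 and ANKRD1, and they were matched between the oocyte table and the cumulus cell (CC) table by Ensembl identifier. Of these 10 members, 9 had a row in both tables, which list 16279 genes for oocytes, 16244 for CC and 14980 in common. YAP1 matched no row by its symbol in either table and was not analysed here. Each library held the oocytes of 4 complexes, or the CC of 4 complexes, aspirated from the largest pre-ovulatory follicle of adult, suckled, Hereford-Angus crossbred beef cows. In all of the cows a follicular wave was synchronized with GnRH and prostaglandin F2α. Small follicles measured up to 11.7 mm (6 oocyte and 6 CC pools) and large follicles 12.7 mm or more (6 and 6 pools). Both came from cows without estrus that received a further GnRH injection. Spontaneous follicles of 11.7 to 14.0 mm (4 oocyte and 5 CC pools) came from cows that expressed estrus and were not given that injection. Each pool mixes 4 animals, and complexes were collected about 23 h after that injection or estrus by the protocol, whereas a sample label reads 20 h. The classifications therefore differ in the source of the gonadotropin surge as well as in diameter. In the study, oocyte and CC pools were drawn from the same complexes. The numbering of the spontaneous pools (4 oocyte and 5 CC) does not show which ones match, so oocytes and CC were not paired here.

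The Hippo pathway is a kinase cascade that restrains tissue growth. The MST kinases STK3 and STK4, with the scaffold SAV1, activate the LATS kinases, which act with MOB1 proteins to phosphorylate the co-activators YAP and TAZ and hold them in the cytoplasm, and angiomotins such as AMOTL2 bind YAP directly. When the cascade is quiet, YAP and TAZ (the product of WWTR1) enter the nucleus, join TEAD factors and raise genes such as CTGF, CYR61 and ANKRD1. In the ovary the pathway is known for its part in follicle growth and granulosa cell proliferation.

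Expression is given as CPM, the reads of a gene scaled to the reads on all genes of a library. The oocyte pools held between 7664375 and 17934916 reads on genes and the CC pools between 1911600 and 5772431, and the level that a count of 0 still allows (3 reads, counting error only) lay between 0.167 and 0.391 CPM for oocyte libraries, and for CC libraries between 0.52 and 1.57 CPM. Mitochondrially encoded genes took 0.846 to 5% of the reads on genes in oocyte pools and 12.6 to 44% in CC pools. CC small replicate 3 had the highest share and also the fewest reads on genes. The labels matched their markers: 10 oocyte genes (GDF9, BMP15, ZP3 and others) summed to 7240 to 11115 CPM in oocyte pools, and the 5 of them listed for CC to 1.57 to 13.7 CPM. Summed over 12 genes, cumulus and granulosa cell markers reached 11895 to 32756 CPM in CC, against 462 to 3933 CPM in the oocyte libraries. The stromal markers COL1A2 and COL3A1 stood apart in CC spontaneous replicate 2. Differences of CYR61 and TEAD1 towards spontaneous CC are given below with and without that pool. The same is given for CTGF from large follicles only and for ANKRD1 from small follicles only.

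In both cell types the kinase arm was detected in every pool, whereas the YAP targets AMOTL2, CYR61, CTGF and ANKRD1 had higher means in CC. AMOTL2 was at 1.14 ± 1.42 CPM in oocytes (SD, n = 16, highest pool 4.16) and at 14.9 ± 6.10 CPM in CC (n = 17, lowest pool 4.71), a ratio of means of 13.1. CYR61, a secreted matricellular protein also named CCN1, was at 7.19 ± 6.36 CPM in oocytes (highest pool 24.8) and at 47.1 ± 12.7 CPM in CC (lowest pool 29.0), a ratio of 6.56. For these 2 of the 9 members every CC pool lay above every oocyte pool, and they did so within each follicle classification too. Among 11431 genes listed in both tables and retained in at least 1 cell type, 13.4% had every CC pool above every oocyte pool and 22.9% had the reverse, which held for 0 of the 9 members. AMOTL2 was retained only in CC, so it entered this count through the cell type where it was high. The tables were scaled separately, so these levels were set side by side without a test, and in pools of cells a smaller number of expressing cells cannot be told apart from less RNA per cell.

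CTGF, a growth factor of the same CCN family (CCN2), averaged 11.01 ± 6.47 CPM in oocytes and 36.0 ± 19.1 CPM in CC, and the ranges of 0.899 to 27.5 and 9.72 to 79.3 CPM overlapped. WWTR1 averaged 4.73 ± 5.04 CPM in oocytes, with 1 pool without a read and a highest pool of 13.3, against 12.9 ± 3.84 CPM in CC (6.87 to 22.4). ANKRD1, an ankyrin repeat protein of stretched and injured muscle that is a usual YAP reporter, had no read in 8 of 16 oocyte pools and at most 1.74 CPM in the others, whereas every CC pool had reads (0.607 to 144 CPM, median 5.43). LATS2, itself a YAP target, ran the other way, with 23.2 ± 16.1 CPM in oocytes and 5.66 ± 3.55 CPM in CC, a ratio of 4.10 towards oocytes with overlapping ranges. LATS1 (80.3 ± 22.5 and 99.8 ± 16.6 CPM), TEAD1 (29.8 ± 15.6 and 24.2 ± 7.47 CPM) and SAV1 (24.7 ± 12.3 and 32.4 ± 7.56 CPM) had means in oocytes and CC that lay within 1 SD of the oocyte pools.

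The cumulus and granulosa markers in oocyte pools averaged 7.25% of their summed CC level, a share that differed between markers. The sum was mostly VCAN, with a CC median of 15810 CPM beside 22102 CPM for the whole sum. HAS2 ran the other way, with medians of 186 CPM in oocytes and 50.5 CPM in CC. Medians in oocytes and CC were 7.82 and 1302 CPM for TNFAIP6, 30.9 and 1868 CPM for INHA, and 1.23 and 5.83 CPM for CYP19A1. The oocyte mean was 7.66% of the CC mean for AMOTL2, 15.2% for CYR61, 30.6% for CTGF, 36.6% for WWTR1 and 2.23% for ANKRD1. The oocyte pools with the highest marker sums were small replicate 3, at 3933 CPM, and large replicate 6, at 3586 CPM, where CYR61 was at 1.57 and 10.4 CPM and CTGF at 7.83 and 6.09 CPM. CYR61 was highest in spontaneous replicate 3, at 24.8 CPM (marker sum 2589 CPM), and CTGF in large replicate 4, at 27.5 CPM (3066 CPM). These marker sums were the next highest among oocyte pools, whose median sum was 1186 CPM. The part of CC transcripts in the oocyte values was not tested.

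**Figure D1:**
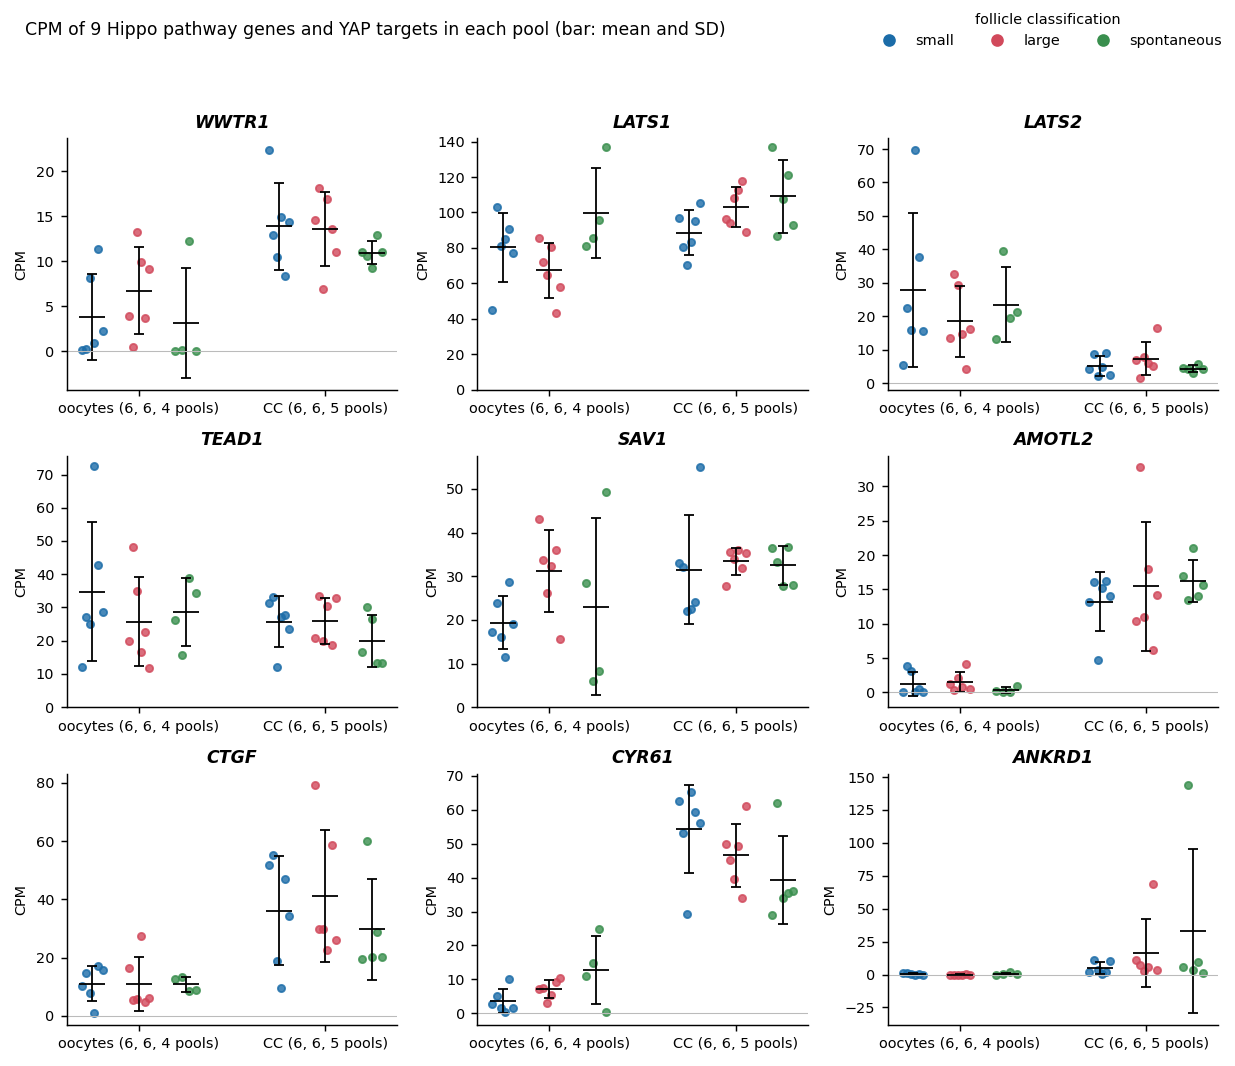
CPM (y axis, linear) of the 9 members in each pool, with oocytes on the left and CC on the right of each panel and the follicle classifications in colour. Points are pools and bars the mean and SD; the CYR61 and AMOTL2 panels show CC pools above all oocyte pools, the ANKRD1 panel shows CC pools at 69.0 and 144 CPM above the rest, and the classifications overlap within each cell type.

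Relatives of the members were split between the cell types. Among angiomotins, AMOT was at 252 ± 52.4 CPM in oocytes and 6.92 ± 3.06 CPM in CC, with no overlap, the reverse of AMOTL2, and AMOTL1 was near 23.7 ± 12.3 and 20.6 ± 5.42 CPM. Among the TEAD factors, which carry YAP and TAZ to DNA, TEAD3 was at 105 ± 34.8 CPM in oocytes and 7.92 ± 3.53 CPM in CC, TEAD2 at 8.84 ± 13.0 CPM in oocytes and 107 ± 24.1 CPM in CC, neither with overlap, and TEAD1 lay in the same range in both. The MST kinase STK4 was higher in every oocyte pool than in any CC pool (91.9 ± 30.9 against 17.02 ± 5.59 CPM), whereas STK3 overlapped (85.2 ± 21.3 against 62.4 ± 15.2 CPM). Of the protocadherins upstream, FAT1, FAT4 and DCHS1 were higher in every CC pool, with DCHS1 at 2.41 ± 4.51 CPM in oocytes and 119 ± 27.9 CPM in CC. WISP3, another CCN gene, was at 17.4 ± 12.3 CPM in oocytes and at or below 0.712 CPM in CC. DCHS1 was retained only in CC and WISP3 only in oocytes.

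A wider signature of YAP targets did not share 1 direction. Of its 17 genes compared, 4 lay higher in every CC pool (MYOF, AMOTL2, CYR61 and CCDC80), 6 lay higher in every oocyte pool (ASAP1, F3, GADD45A, DOCK5, PTPN14 and NUAK2) and 7 overlapped. These counts equal 23.5% and 35.3%, beside 13.4% and 22.9% of all genes compared. All of them take genes retained in at least 1 cell type. AMOTL2 entered only through CC and NUAK2 only through oocytes, the cell types where they were high. Immediate-early genes, which respond to many growth signals, had 7 of 17 higher in every CC pool (41.2%, beside 13.4% of all genes compared). Among them were FOS at 156 ± 50.8 CPM and EGR1 at 337 ± 153 CPM in CC, against 3.04 ± 4.14 and 52.8 ± 26.9 CPM in oocytes. The immediate-early genes EGR2, IER2, IER3, MYC and BTG2 were retained only in CC, so they entered the comparison only through that cell type. NR4A1 and KLF4 were the 2 immediate-early genes higher in every oocyte pool (11.8%, beside 22.9%). FOSL1 and KLF4 were retained only in oocytes. The relatives shown and the genes named in this list were chosen after their values were seen.

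**Figure D2:**
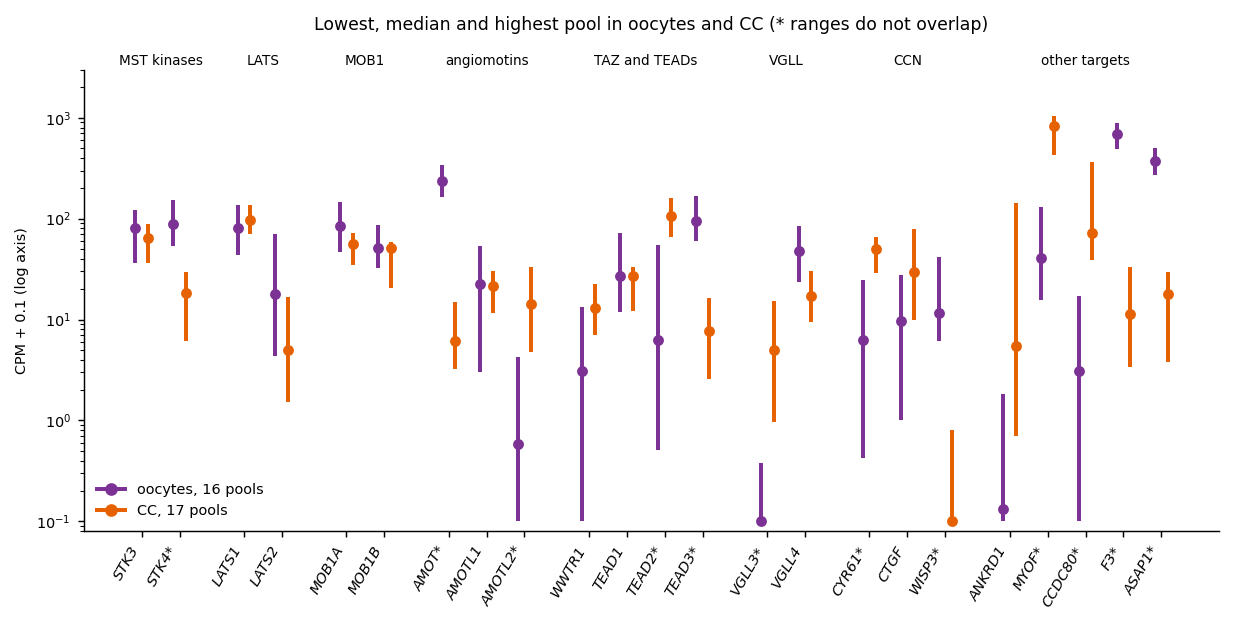
CPM plus 0.1 (y axis, log scale) of members and related Hippo genes in 16 oocyte pools and 17 CC pools. Lines run from the lowest to the highest pool and dots are medians; an asterisk marks genes whose ranges do not overlap, as for AMOT and TEAD3 (oocytes higher) and AMOTL2, TEAD2 and CYR61 (CC higher), and heights are to be read within a gene, since CPM does not correct for gene length.

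Follicle classification was the comparison the study was built on, asking whether transcripts in complexes differ when a small follicle is induced to ovulate. No member met the threshold, a limma nominal p of 0.01 or less, in any of the 6 comparisons, and in the oocyte comparisons with small follicles the call had to hold without small replicate 3 as well. Of all retained oocyte genes, 0.655% were called between small and large follicles, 0.774% between small and spontaneous, and 0.943% between large and spontaneous, and the corresponding shares in CC were 0.813%, 2.38% and 1.66%. In oocytes 7 members were tested, because AMOTL2 and ANKRD1 did not reach 5 CPM in at least 4 pools, and in CC 9 members were tested, so 0 of 48 member differences were called. At a nominal p under 0.05 limma gave 1, LATS1 in large against spontaneous oocytes. The edgeR quasi-likelihood test called 0 and DESeq2 called 1, which was CYR61 in small against spontaneous CC, and under 0.05 they gave 3 and 2. Values of every member overlapped between every pair of classifications. The share of all retained genes that overlapped was not counted, so the overlap cannot be read as particular to the members. Log2 fold changes are differences of mean log2(CPM + 1), the last-named classification minus the other, and they understate changes of genes at low CPM.

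The scaffold and the kinases came first in the cascade. SAV1 averaged 19.4 ± 6.06, 31.1 ± 9.38 and 23.0 ± 20.3 CPM in oocytes of small, large and spontaneous follicles. The large pools ran from 15.6 to 43.0 CPM (median 33.0) and the small ones from 11.4 to 28.6 CPM (median 18.1), so that 5 of 6 large pools exceeded 5 of 6 small pools. From small to large the log2 fold change was 0.65 (SE 0.38, 95% interval -0.13 to 1.42; limma adjusted p = 0.997; exact permutation test p = 0.0325, two-sided). The spontaneous oocyte pools spread the most, at 28.4, 5.94, 8.27 and 49.4 CPM. In CC SAV1 was steadier, with class means of 31.4 ± 12.5, 33.4 ± 3.15 and 32.5 ± 4.39 CPM in small, large and spontaneous pools, apart from small replicate 6 at 54.9 CPM.

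LATS1 was among the least variable genes in CC, with a coefficient of variation of 16.7% that was lower than in all but 3.51% of retained genes. Its CC means were 88.6 ± 12.7, 103 ± 11.5 and 109 ± 20.6 CPM in small, large and spontaneous pools, with log2 fold changes of 0.22 (95% interval -0.14 to 0.58) from small to large and 0.29 (-0.08 to 0.66) from small to spontaneous. Those differences are to be read against a median log2 fold change over all retained CC genes of 0.161 from small to spontaneous. In oocytes the LATS1 means were 80.3 ± 19.6, 67.3 ± 15.5 and 99.8 ± 25.4 CPM in the same order. The 4 spontaneous pools were at 81.3, 85.4, 95.8 and 137 CPM, the 6 large pools ran from 43.2 to 85.6 CPM with a median of 68.4, and large replicate 1 exceeded the 2 lowest spontaneous pools. From large to spontaneous the log2 fold change was 0.56 (SE 0.27, 95% interval 0.02 to 1.11; limma p = 0.0427, adjusted p = 0.968; exact permutation test p = 0.0190, two-sided, smallest possible 0.00476). It was 0.40 without spontaneous replicate 4 (limma adjusted p = 0.941) and 0.37 with the replicate number as a block (limma adjusted p = 0.9999), a fit in which large replicates 5 and 6 have no partner. From small to spontaneous it was 0.32 (95% interval -0.25 to 0.90, and 0.16 to 0.41 with single pools left out).

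LATS2 varied more, from 4.25 to 69.7 CPM over the oocyte pools and from 1.42 to 16.5 CPM over the CC pools. Class means in oocytes were 27.8 ± 23.1, 18.4 ± 10.6 and 23.5 ± 11.3 CPM for small, large and spontaneous pools, and in CC 5.18 ± 3.01, 7.28 ± 5.01 and 4.28 ± 1.03 CPM. The widest CC difference, from large to spontaneous, was -0.45 on the log2 scale (95% interval -1.35 to 0.46). It was -0.75 without large replicate 2 and -0.18 without large replicate 6, the lowest and the highest large pool, and -0.88 with DESeq2 and edgeR. Each fit missed the threshold, so no difference in LATS2 was detectable in CC. AMOTL2, which binds YAP and is also its target, averaged 13.2 ± 4.33, 15.4 ± 9.35 and 16.2 ± 3.04 CPM in small, large and spontaneous CC, with large replicate 2 at 32.7 CPM. From small to spontaneous its log2 fold change was 0.34 (95% interval -0.29 to 0.98; limma adjusted p = 0.804). It was 0.10 without small replicate 3, which at 4.71 CPM was the lowest CC pool, and 0.14 with DESeq2.

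No effector among the members passed the threshold in CC. WWTR1 averaged 13.9 ± 4.84, 13.6 ± 4.12 and 10.95 ± 1.30 CPM in small, large and spontaneous CC pools, and from small to spontaneous its log2 fold change was -0.26 (95% interval -0.84 to 0.31, and -0.39 to -0.12 with single pools left out). In oocytes WWTR1 was either near 0 or several CPM. Among spontaneous oocyte pools replicates 1 to 4 were at 0, 0.0675, 12.3 and 0.0558 CPM, whereas large oocyte pools ran from 0.425 to 13.3 CPM (median 6.50) and small ones from 0.0811 to 11.4 CPM (median 1.57). From large to spontaneous the log2 fold change was -1.63 (SE 0.85, 95% interval -3.37 to 0.11; limma adjusted p = 0.968; exact permutation test p = 0.252), and without spontaneous replicate 3 it was -2.55 and past the nominal threshold (limma adjusted p = 0.976). From small to large it was 0.97 (95% interval -0.53 to 2.47).

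TEAD1 averaged 34.7 ± 20.9, 25.7 ± 13.4 and 28.7 ± 10.2 CPM in small, large and spontaneous oocytes. In CC its means were 25.8 ± 7.56, 26.0 ± 6.89 and 20.0 ± 7.85 CPM, and its 5 spontaneous pools were at 16.5, 30.04, 26.7, 13.4 and 13.2 CPM. The log2 fold changes towards spontaneous CC were -0.37 from small (95% interval -0.99 to 0.25) and -0.40 from large (-0.98 to 0.17), with limma adjusted p of 0.777 and 0.765. Spontaneous replicate 2 was the highest of its class, and without it they were -0.53 and -0.57. With each pool left out in turn they ran from -0.56 (without small replicate 3) to -0.25, and from -0.57 to -0.28, and none passed the threshold.

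**Figure D3:**
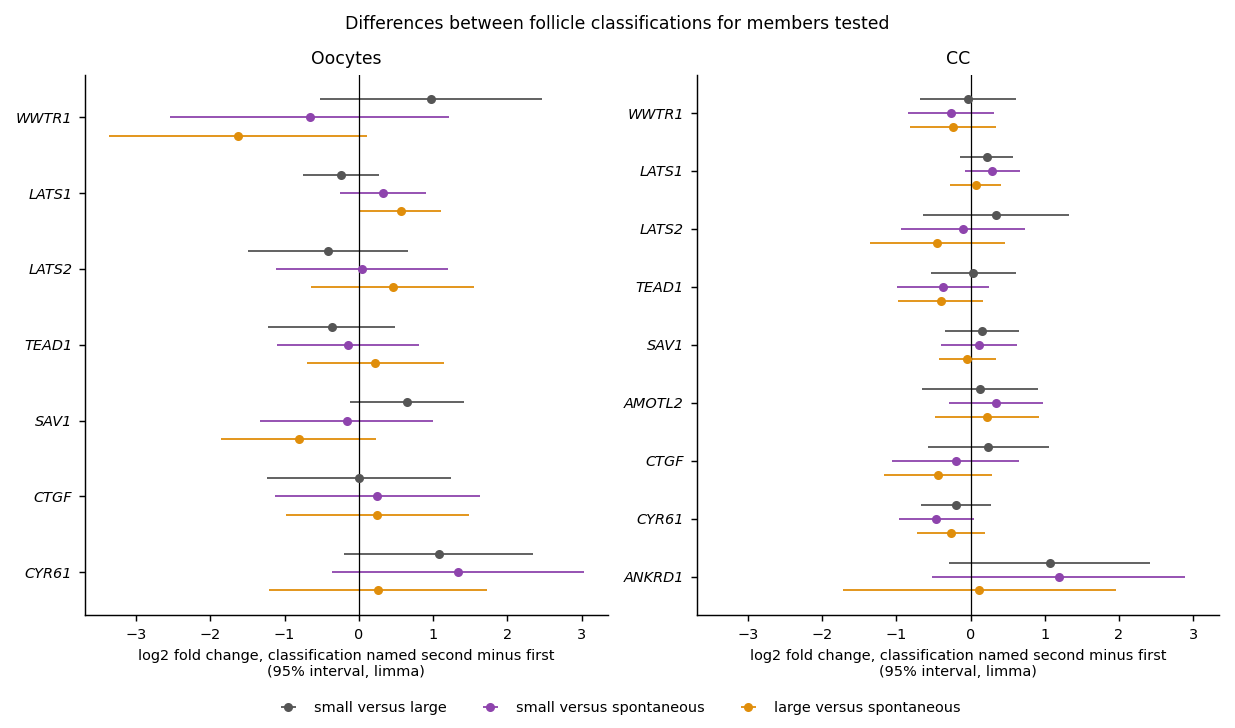
Log2 fold change between follicle classifications (x axis, limma, log2 of CPM + 1) for 7 members in oocytes and 9 in CC, with 95% intervals as bars and 1 colour for each comparison. All but 1 of the intervals include 0; the exception is LATS1 in large against spontaneous oocytes (0.02 to 1.11), and of the CC intervals those of ANKRD1 are the widest.

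Among the targets, CYR61 had the smallest p in CC. Its pools ran from 29.3 to 65.3 CPM in small CC (median 57.7), from 34.1 to 61.0 CPM in large CC (median 47.3), and stood at 29.0, 62.0, 34.1, 35.4 and 35.9 CPM in spontaneous replicates 1 to 5. In small CC 5 of 6 pools were above 53 CPM, whereas 4 of 5 spontaneous pools were below 36 CPM. The exceptions were small replicate 3 and spontaneous replicate 2. The former had the fewest reads on genes and the highest mitochondrial share of the CC pools, and the latter was high in COL1A2 and COL3A1. From small to spontaneous the log2 fold change was -0.46 (SE 0.24, 95% interval -0.97 to 0.04; limma p = 0.0711, adjusted p = 0.615; exact permutation test p = 0.0974). It passed the nominal threshold at -0.61 with median-of-ratios scaling (limma adjusted p = 0.727), which takes out the shift common to all genes, at -0.64 with mitochondrially encoded genes left out of the totals (0.759) and at -0.63 without small replicate 3 (0.311). Without spontaneous replicate 2 it was -0.64 and did not pass (limma adjusted p = 0.536). From small to large it was -0.20 (95% interval -0.67 to 0.27), and -0.36 to -0.12 with single pools left out. From large to spontaneous it was -0.26 (-0.72 to 0.19) and without spontaneous replicate 2 -0.44 (limma adjusted p = 0.827).

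In oocytes the CYR61 means stood in the opposite order, at 3.596 ± 3.63, 7.08 ± 2.69 and 12.7 ± 10.1 CPM in small, large and spontaneous pools. Its spontaneous oocyte pools were at 10.9, 14.8, 24.8 and 0.446 CPM, and 4 of 6 small pools were below 3 CPM. The log2 fold change was 1.08 from small to large (95% interval -0.20 to 2.35; limma adjusted p = 0.997; exact permutation test p = 0.0866) and 1.34 from small to spontaneous (-0.36 to 3.03; limma adjusted p = 0.987; exact p = 0.0762). The difference between small and spontaneous oocytes depended on single pools, at 0.84 without spontaneous replicate 3 and 2.22 without spontaneous replicate 4, and neither passed the threshold. The difference between oocytes and CC in the direction of CYR61 was not tested.

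CTGF means in oocytes were 11.1 ± 6.11, 11.01 ± 9.18 and 10.9 ± 2.53 CPM in small, large and spontaneous pools, and in CC 36.2 ± 18.6, 41.0 ± 22.7 and 29.7 ± 17.3 CPM. Pool to pool spread in CC was large in each class, with small replicate 4 at 9.72 CPM and large replicate 1 at 79.3 CPM. The spontaneous CC pools were at 19.4, 59.9, 20.2, 28.7 and 20.3 CPM, and the high pool was again replicate 2. From large to spontaneous CC the log2 fold change was -0.44 (95% interval -1.17 to 0.28; limma adjusted p = 0.792), -0.73 without spontaneous replicate 2 (limma adjusted p = 0.801) and -0.23 without large replicate 1, its highest pool (limma adjusted p = 0.896).

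ANKRD1 had the highest spread of the members. Its coefficient of variation over CC pools was 212%, above 99.9% of the retained genes, whose median was 33.9%. The class means of 4.84 ± 4.58, 16.4 ± 25.9 and 32.8 ± 62.2 CPM rested on large replicate 5 at 69.0 CPM and spontaneous replicate 2 at 144 CPM, and the other 15 CC pools lay between 0.607 and 11.1 CPM. The log2 fold change was 1.07 from small to large (95% interval -0.29 to 2.42; limma adjusted p = 0.999) and 0.49 without large replicate 5. From small to spontaneous it was 1.19 (-0.52 to 2.89; limma adjusted p = 0.736) and 0.23 without spontaneous replicate 2. With DESeq2, which returned no p-value for ANKRD1 here, it was 2.62.

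CC spontaneous replicate 2 was the highest pool of its class in CTGF, CYR61 and ANKRD1 and stood apart from the other 4 pools in each. Of the stromal markers, COL1A2 was also high there, at 2117 CPM against at most 40.8 CPM in the other CC pools. COL3A1 was at 218 CPM against at most 24.3 CPM, and PDGFRB at 19.3 CPM against at most 1.21 CPM. PDGFRA, THY1 and LUM were also highest in this pool, LUM at 880 CPM against at most 873 CPM. COL1A1 and DCN were not, at 374 and 60.7 CPM, with up to 449 and 73.9 CPM in another CC pool. The 8 fibroblast and stroma markers summed to 4144 CPM in this pool, between 526 and 1156 CPM in the other spontaneous CC pools, and between 371 and 1465 CPM in small and large CC pools. In large replicate 5, the other pool high in ANKRD1, the sum was 799 CPM, PDGFRB and THY1 had no read and COL1A2 was at 1.14 CPM. Of the other cell types, 10 white blood cell markers summed to 140 CPM in spontaneous replicate 2 (20.9 to 128 CPM in the other CC pools) and 5 smooth muscle markers to 58.9 CPM (3.66 to 44.3 CPM elsewhere). Sums over CC pools ran from 153 to 1242 CPM for 5 theca markers, from 7.38 to 72.0 CPM for 8 endothelial markers and from 0.304 to 4.98 CPM for 5 red blood cell markers. Spontaneous replicate 2 did not have the highest of these sums, but single markers differed. STAR, of the theca list, was at 315 CPM in this pool, against at most 12.6 CPM in the other CC pools. CYP11A1 was at 156 CPM against at most 84.35 CPM. INSL3, LHCGR and CYP17A1 were not highest there, with INSL3 at 176 CPM beside a CC median of 360.5 CPM. Of the endothelial markers only KDR was, at 48.6 CPM against at most 47.3 CPM. The part of other cells in these values was not tested.

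Over the 17 CC pools TEAD1 and CYR61 varied together. Pearson's r of log2(CPM + 1) was 0.77 (permutation p = 0.00059, adjusted p = 0.0212 over 36 member pairs), and Spearman's rho was 0.66 (p = 0.00433, adjusted p = 0.156). With the 2 pools farthest from the median of TEAD1 left out, r was 0.70, and with values centred on each classification 0.76. Leaving out each pool in turn kept r between 0.72 and 0.83 and the adjusted p at or below 0.0410, and r was 0.76 with median-of-ratios scaling and 0.78 without mitochondrially encoded genes. No other of the 36 pairs passed. CTGF and ANKRD1 came next, with r = 0.62 (permutation p = 0.00768, adjusted p = 0.138; rho 0.63, p = 0.00882, adjusted p = 0.159), 0.58 without the 2 farthest pools and 0.58 without spontaneous replicate 2.

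In the 16 oocyte pools TEAD1 and CYR61 gave r = -0.29 (permutation p = 0.28, adjusted p = 0.740; rho -0.22, p = 0.404, adjusted p = 0.937), and 0.05 without the 2 farthest pools. Of 21 oocyte pairs none passed, and 2 had a permutation p under 0.05. The highest r, 0.63, was between LATS2 and TEAD1 (permutation p = 0.00845, adjusted p = 0.177; rho 0.58, p = 0.0211, adjusted p = 0.443; 0.57 without the 2 farthest pools). Both were highest in small replicate 4, with LATS2 at 69.7 and TEAD1 at 72.5 CPM. Pools of a cell type share their scaling, and the difference in r between CC and oocytes was not tested.

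**Figure D4:**
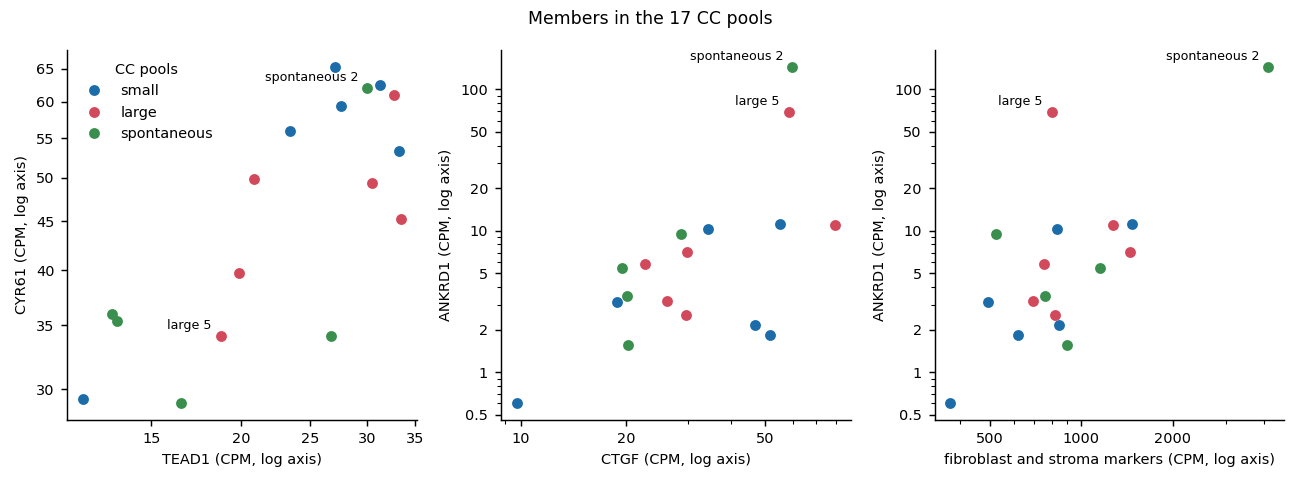
CYR61 against TEAD1, ANKRD1 against CTGF, and ANKRD1 against the summed fibroblast and stroma markers in the 17 CC pools (CPM, log axes), coloured by follicle classification. TEAD1 and CYR61 vary together (r = 0.77), and spontaneous replicate 2 and large replicate 5 hold the high ANKRD1 values of 144 and 69.0 CPM, with marker sums of 4144 and 799 CPM.

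Among 9711 other retained genes, those with patterns most like CTGF over the CC pools were SNAI2 (r = 0.77), TSPAN7 (0.70) and PLEKHM2 (0.68), and those most like ANKRD1 were SNAI2 (0.83), LHFPL2 (0.76) and PDGFRA (0.76). Without spontaneous replicate 2, a choice made after seeing the data, ANKRD1 gave r = 0.86 with SNAI2, 0.57 with LHFPL2 and 0.69 with PDGFRA. SNAI2 encodes a transcription repressor of epithelial-to-mesenchymal transition and was at 0.607 to 53.6 CPM in CC, with a median of 3.07 CPM. Its high pools were small replicate 2 (53.6 CPM), large replicate 5 (52.5 CPM) and spontaneous replicate 2 (25.9 CPM), and the last pair were those high in ANKRD1. CYR61 was most like JMJD6 (r = 0.81), TEAD1 (0.77) and SLC9A8 (0.77). These values describe 17 pools that share their scaling, and each gene was the highest of a search over all retained genes.

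In the wider pathway few genes were called between classifications, where 0.655% to 2.38% of all retained genes were called. Over the 7 core kinases and scaffolds, 0 were called in each of the 6 comparisons. In the large to spontaneous oocyte comparison their median log2 fold change was 0.16 (0.0078 over all retained genes), with 6 of 7 higher in spontaneous pools. From small to spontaneous 6 of 7 were also higher, with medians of 0.14 in oocytes (0.048 over all) and 0.29 in CC (0.161). From large to spontaneous CC it was 5 of 7, with a median of 0.26 (0.110). From small to large 4 of 7 were higher in large pools in both cell types. The share of all genes higher in spontaneous pools was not counted. Of 18 upstream regulators none was called, and WWC2, a KIBRA relative, had the smallest p from small to large CC, with means of 128 ± 50.3 and 198 ± 71.1 CPM (limma adjusted p = 0.999). The effectors, the CCN family and the immediate-early genes also had 0 called in each comparison. The upstream regulators with the smallest p elsewhere were FRMD6, MARK3 and STRN4 in oocytes, and TAOK3 and FRMD6 in CC. Among the effectors they were WWTR1 and TEAD3 in oocytes and TEAD2, TEAD3 and TEAD1 in CC, and in the core list STK4 in oocytes and MOB1A in CC, beside SAV1 and LATS1. Among YAP targets they were ASAP1 and CRIM1 in oocytes, and IGFBP3 and CRIM1 beside CCDC80 in CC. NR4A1 had the smallest p of the immediate-early genes towards spontaneous oocytes, with class means of 170 ± 34.0, 159 ± 11.3 and 109.7 ± 17.1 CPM (small, large, spontaneous) (limma adjusted p = 0.987 and 0.968).

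Of the proteins that bind YAP and TAZ, 2 were called in CC. They were 1 of 16 tested from small to large and 1 of 16 from small to spontaneous. Over all retained CC genes 0.813% and 2.38% were called in these comparisons. BTRC, the F-box subunit of the ubiquitin ligase that marks phosphorylated YAP for degradation, rose from 67.8 ± 20.4 CPM in small to 118 ± 25.5 CPM in large CC (log2 fold change 0.81, SE 0.21; limma adjusted p = 0.999). Its large pools ran from 85.5 to 151 CPM and 5 of 6 small pools were at or below 78.2 CPM, with small replicate 2 at 104 CPM. BTRC was called under each of the alternatives tried, with log2 fold changes of 0.70 to 0.94. It was 1 of 16 proteins of this list tested, and 13 of the 16 were higher in large pools, with a median log2 fold change of 0.08 beside 0.05 over all retained genes.

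YWHAZ, a 14-3-3 protein that retains phosphorylated YAP in the cytoplasm, rose from 113 ± 26.5 CPM in small to 180 ± 46.5 CPM in spontaneous CC (log2 fold change 0.66, SE 0.20; limma adjusted p = 0.372). The spontaneous pools were at 167, 130, 166, 256 and 183 CPM, and 2 of 6 small pools, at 137 and 155 CPM, reached into that range. Relative to the common shift the difference was smaller, at 0.50 with median-of-ratios scaling (limma adjusted p = 0.741), and the call was lost. In oocytes AMOT was nearest to the threshold of this list, with 221 ± 33.7 CPM in small and 293 ± 32.9 CPM in large pools (log2 fold change 0.41, SE 0.15; limma adjusted p = 0.997).

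CCDC80, an extracellular matrix protein, was the only called gene among 16 tested of the YAP target signature in CC. Its call was from small to spontaneous follicles, where 2.38% of all retained CC genes were called. It rose from 57.2 ± 11.5 CPM in small to 145 ± 124 CPM in spontaneous CC (log2 fold change 1.06, SE 0.32; limma adjusted p = 0.390). Its spontaneous pools were at 94.2, 365, 81.3, 71.9 and 113 CPM, with the highest value in replicate 2, the pool high in COL1A2 and COL3A1. Without that pool the log2 fold change was 0.65 and still past the threshold (limma adjusted p = 0.487). It was 0.90 with median-of-ratios scaling (limma adjusted p = 0.741) and the call was lost. The other 15 genes of the signature were not called, and over all 16 the median log2 fold change was 0.30 beside 0.16 over all retained genes.

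Genes called over all of CC leaned upward in spontaneous follicles on the CPM scale. From small to spontaneous 221 of the 231 called genes were higher in spontaneous pools, against 79 of 127 with median-of-ratios scaling. From large to spontaneous the numbers were 141 of 161 and 61 of 117, and from small to large 67 of 79 and 45 of 71. The median share of mitochondrially encoded genes was 23.5% in small, 21.4% in large and 15.6% in spontaneous CC, and without these genes in the totals the numbers were 69 of 127 and 85 of 124 towards spontaneous CC, whereas from small to large the lean turned, with 28 of 67 called genes higher in large pools. The median log2 fold change over all genes was 0.161 and 0.110 towards spontaneous CC on the CPM scale, and 0.012 in both after rescaling, so CYR61, TEAD1 and CTGF stood lower against the other genes than their CPM differences show.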

How the data were processed

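Total RNA of pools of 4 oocytes or of the CC of 4 complexes was amplified and sequenced. The authors aligned reads with Hisat2 to the bovine build UMD3.1, assigned them to Ensembl genes by featureCounts and deposited CPM values, 1 table for each cell type. Every deposited CPM value was a whole number of reads within a tolerance of 0.05 reads (100% of values), so reads were recovered for edgeR and DESeq2. The groups follow the sample labels, and the members, the lists and the tests were chosen with earlier results of these data known. As in the study, a gene was retained where 4 or more pools of oocytes (10076 genes), or 5 or more of CC (9712 genes), reached 5 CPM. Follicle classifications were compared in pairs within a cell type with limma (3.58.1, two-sided, trend) on log2(CPM + 1), with a nominal p of 0.01 or less as the threshold and Benjamini-Hochberg adjustment over all retained genes. Calls in oocytes from small follicles had to hold without small replicate 3, as in the methods of the study. The study itself tested counts with edgeR and DESeq2 together, whereas limma was used here because the deposited values are CPM. All p-values of a comparison without another test named are from limma. Exact permutation tests used all regroupings, and pair correlations used 100000 permutations. No 2 libraries agreed within sampling noise. The p-values measure the spread between pools. Alternatives were edgeR (4.0.16), DESeq2 (1.42.0), median-of-ratios scaling, CPM without the 13 mitochondrially encoded genes, other filters and pseudocounts, a joint fit of the 3 classifications, the replicate number as a block and each pool left out. All member genes found were named, with the list genes past the threshold and the smallest p of each list, and the 3 genes most like CTGF, CYR61 and ANKRD1. The procedures were tested on simulated data in R 4.3.3 and Python 3.11.15. Marker lists covered oocytes, cumulus and granulosa cells, theca, white and red blood cells, endothelium, fibroblasts and stroma, and smooth muscle. Strandedness of the counting is not given in the sources used here.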

Additional observations from a re-analysis of the deposited data

Results flagged for a closer look

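Of 54 groups of members and pools, 10 held a pool far from the others of its class by Dixon's criterion. Its nominal rate of about 5% of groups assumes normally distributed values. The criterion was applied to untransformed CPM, also in groups with mostly 0 reads, so that rate is no measure of chance here. CC spontaneous replicate 2 gave 3 of them, with ANKRD1 at 144 CPM (1.54 to 9.44 in the other pools), CTGF at 59.9 CPM (19.4 to 28.7) and CYR61 at 62.0 CPM (29.0 to 35.9). CC small replicate 3, with the fewest reads on genes, gave 2 low values, AMOTL2 at 4.71 CPM (13.2 to 16.3) and CYR61 at 29.3 CPM (53.2 to 65.3). ANKRD1 was at 69.0 CPM in CC large replicate 5 (2.55 to 10.9) and SAV1 at 54.9 CPM in CC small replicate 6 (at most 33.1). Oocyte spontaneous replicate 3 had WWTR1 at 12.3 CPM (0 to 0.0675) and ANKRD1 at 1.74 CPM (0 to 0.112). ANKRD1 at 0.185 CPM in oocyte large replicate 5 stood against 0 in the other 5 pools, which is below the level that a count of 0 allows.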

How the results depend on the processing

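Of 48 member differences, 30 kept their sign under each alternative tried and 18 changed sign under at least 1. The number of members past the threshold became 1 (CYR61) in small against spontaneous CC under median-of-ratios scaling, without mitochondrially encoded genes and with DESeq2, and ran from 0 to 1 with each pool left out (1 without small replicate 3). In large against spontaneous oocytes it ran from 0 to 1 (WWTR1, 1 without spontaneous replicate 3). Pairs past the threshold numbered 0 to 1 in oocytes with a pool left out (LATS2 with TEAD1, without spontaneous replicate 2). In CC they numbered 3 with values centred on each classification (TEAD1 with AMOTL2 and with CYR61, CTGF with ANKRD1) and 1 to 2 with a pool left out. TEAD1 with CYR61 passed in each of these fits, and CTGF with ANKRD1 without small replicate 1 or 5. Without small replicate 3, LATS1 with CYR61 passed at a negative r of -0.75, against -0.38 with all pools. The members higher in CC without overlap were AMOTL2 and CYR61 under each alternative tried. YWHAZ lost its call under 4 of 9 other settings (median-of-ratios scaling, without mitochondrially encoded genes, edgeR and DESeq2) and CCDC80 under 2 of 9 (the scaling and the mitochondrial setting), and with single pools left out YWHAZ kept its call in 7 of 11 fits and CCDC80 in 10 of 11. The causes were not tested.

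With the replicate number as a block, 0 members were called in each comparison. Same-numbered pools correlated between -0.19 and 0.224 and at most 1 pair in a comparison exceeded 0.1. With 4 to 6 such pairs in a comparison, these values cannot decide whether same-numbered pools share a collection batch. The block changed the count over all genes from 78 to 42 in small against spontaneous oocytes. DESeq2 called 113, 121 and 181 oocyte genes against 66, 78 and 95. In small against spontaneous CC 231 genes became 127 with median-of-ratios scaling, 127 without mitochondrially encoded genes and 128 with edgeR, and in small against large CC 79 became 137 in the joint fit. With a pool left out the counts ran from 47 to 93, 49 to 130 and 75 to 145 in oocytes and from 52 to 113, 141 to 313 and 88 to 232 in CC. CC libraries had fewer reads on genes than oocyte libraries, so 1 read on a gene is worth more CPM in them.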
